A study of Arabidopsis thaliana with 60 samples.

Results

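The 150 Arabidopsis thaliana genes described here were those whose mRNA was raised most in wild-type leaves 2 h after induction of MLACC, a coiled-coil fragment of MLA, which is an immune receptor of barley. They were taken from 32399 nuclear genes in the count tables. Each count was divided by its library's sum over all gene rows and scaled to 1e6 (CPM), the 3 libraries of a group were averaged, and the genes were ranked by log2 of (MLACC + 1) over (mYFP + 1) at 2 h. The genes were thus chosen by measured values, the CPM of the wild-type libraries at 2 h, so those values are given as a description with no test, and the later times, the mutant lines and the time courses of the control lines carry the tests.

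The study followed poly(A) RNA from leaves by sequencing in 60 libraries, 3 for each of 20 combinations of line and time, at 0, 2, 4, 6 and 8 h after leaves of soil-grown plants were infiltrated with 1 µM dexamethasone. Each library came from 6 leaf discs that were cut from 6 independent plants. The line called WT MLACC here is Col-0 DEXp:MLACC-mYFP, in which dexamethasone switches on MLACC joined to monomeric yellow fluorescent protein, and its reference, WT mYFP, is Col-0 DEXp:mYFP with the fluorescent protein alone. The line called ppsdes MLACC carries DEXp:MLACC-mYFP in the sextuple mutant ppsdes of Col-0, whose alleles are dde2-2, sid2-2, pad4-1, ein2-1, pen2-1 and sag101-2, and its reference, the ppsdes control, is the same mutant without a transgene. The mutant control thus differs from WT mYFP in carrying no construct. Each transgene was driven by a dexamethasone-inducible promoter and selected lines were used, and the level of the MLACC transcript was not analysed here. The paper on these lines reports less MLACC protein at steady state in this sextuple mutant. It could not exclude that this adds to the weaker correlation of the response there. A smaller response in ppsdes MLACC therefore cannot be told apart from a lower level of MLACC.

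Plants detect pathogen molecules inside the cell through nucleotide-binding leucine-rich repeat receptors, and the coiled-coil domain of MLA is known to trigger cell death and defence gene expression when expressed by itself. Calcium influx, MAP kinase activation and the transcription factor families that read them are known as early steps, and genes of jasmonate, salicylic acid, ethylene and indole metabolism respond downstream. The mutations in ppsdes remove parts of these pathways: DDE2 encodes the allene oxide synthase of jasmonate synthesis, EIN2 transmits the ethylene signal, SID2 makes salicylic acid, PAD4 and SAG101 work with the immune regulator EDS1, and PEN2 breaks down indole glucosinolates. Calmodulin-binding transcription activators (CAMTA) recognise CGCG-containing elements, among them CGCGTT, known as the rapid stress response element, and WRKY factors recognise the W box with the core TTGAC.

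The 250 bases before the annotated start, and 50 bases after it, were searched on both strands in each of the 150 genes. CGCG was present in 43 of the 150 promoters, or 28.7%, against 14.2% of the genes tested in wild type and 13.0% of all nuclear protein-coding genes. CGCGTT, which contains CGCG and so overlaps that count, was in 18 promoters, or 12.0%, against 3.89% of tested genes and 3.43% of all genes. TTGAC was in 103 promoters, or 68.7%, against 51.1% and 50.5%, and 52 promoters held at least 2 copies, or 34.7%, against 18.6% and 17.7%. Both CGCG and TTGAC were found in 36 promoters, or 24.0%, against 7.26% and 6.55%. CGTG, which also lies within CACGTG, was in 66.7%, against 53.6% of tested genes. TGACG was in 30.7% of the 150 promoters, against 23.9% of tested genes, TATAAA in 59.3%, against 51.2%, GCCGCC in 4.0%, against 2.63%, and the G box CACGTG in 7.33%, against 8.90%. Neither CGCG nor TTGAC was found in 40 of the 150 promoters, or 26.7%, against 42.0% of tested genes and 43.1% of all genes. A match describes the letters in this window and not a bound site.

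Of the 5 highest-ranked genes with CGCGTT before the start, 4 are shown so that the spacing of these letters can be read. The RefSeq sequence of the TAIR10.1 assembly is given for the 250 bases before the start, 5′ to 3′ on the strand of the gene, and capitals mark TTGAC and CGCG with the adjoining letters of CGCGTT on either strand.
AT1G56060 promoter, chr1:20967181-20967430, minus strand: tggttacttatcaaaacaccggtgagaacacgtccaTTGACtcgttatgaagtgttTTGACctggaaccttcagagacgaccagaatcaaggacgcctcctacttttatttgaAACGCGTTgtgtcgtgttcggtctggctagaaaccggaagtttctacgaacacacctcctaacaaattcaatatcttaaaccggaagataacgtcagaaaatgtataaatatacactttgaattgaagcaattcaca
CYP82G1 promoter, chr3:9169302-9169551, minus strand: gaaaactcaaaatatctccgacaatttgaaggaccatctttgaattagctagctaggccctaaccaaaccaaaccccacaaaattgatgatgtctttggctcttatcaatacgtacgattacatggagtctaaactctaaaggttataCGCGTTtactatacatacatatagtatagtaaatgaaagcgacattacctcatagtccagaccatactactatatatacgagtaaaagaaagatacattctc
LOX4 promoter, chr1:27308263-27308512, plus strand: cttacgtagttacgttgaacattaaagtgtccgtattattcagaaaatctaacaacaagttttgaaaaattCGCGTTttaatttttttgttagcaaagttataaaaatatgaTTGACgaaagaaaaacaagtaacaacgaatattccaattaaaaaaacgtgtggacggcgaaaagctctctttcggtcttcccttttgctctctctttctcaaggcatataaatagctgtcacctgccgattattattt
AT1G66090 promoter, chr1:24601783-24602032, plus strand: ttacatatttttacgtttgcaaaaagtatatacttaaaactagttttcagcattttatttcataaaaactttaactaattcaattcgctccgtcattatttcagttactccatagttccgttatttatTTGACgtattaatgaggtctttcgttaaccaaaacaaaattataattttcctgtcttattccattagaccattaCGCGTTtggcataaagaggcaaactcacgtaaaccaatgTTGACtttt

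In AT1G56060 the CGCGTT letters are read on both strands, and a pair of TTGAC copies stands farther from the start. CYP82G1, which encodes the enzyme known for making the volatile homoterpene TMTT, has CGCGTT and no TTGAC in this stretch. LOX4 encodes a 13-lipoxygenase of jasmonate synthesis, and AT1G66090 encodes a protein with TIR and NBS domains.

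The genes also had few exons. A single exon was annotated in 70 of the 150 genes, or 46.7%, against 15.3% of genes tested in wild type and 20.5% of all nuclear protein-coding genes. The median transcript of the 150 genes was 1487 bases, against 1683 bases for tested genes and 1485 bases for all nuclear protein-coding genes. They were spread over the 5 chromosomes, with 42, 21, 34, 25 and 28 genes on chromosomes 1, 2, 3, 4 and 5, and 24 had another of the 150 within 20 kb. The kit did not mark strand, and 18 of the genes overlap another protein-coding gene, so their counts are less certain. CML40 shares 2067 bases with LYK2, SARD1 shares 640 bases with GIP2 and 4CL5 shares 459 bases with MKK5. XTH18 and XTH19, and AOC1 and AOC3, are close copies whose reads could also have been split between them.

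Libraries held 14.08 to 25.95 M counts (M, 1e6 counts) assigned to genes, so that 3 counts stood for 0.116 to 0.213 CPM. Some libraries stood apart from their group in the level of the 150 genes. The median CPM over the genes was 0.939 in WT mYFP 2 h replicate 3, against 7.42 and 10.1 in the other replicates, and 8.79 in WT mYFP 4 h replicate 3, against 1.31 and 1.24. Replicate 3 at 2 h was thus nearer to the other 4 h libraries and replicate 3 at 4 h nearer to the other 2 h libraries. The labels were used as given, and whether these were exchanged was not tested. An exchange would change the control of the ranking at 2 h, the control at 4 h and the comparison of WT mYFP at 4 h with 0 h. Without WT mYFP 2 h replicate 3 the ranking kept 136 of the 150 genes. In ppsdes MLACC at 2 h it was 1.97, 20.5 and 5.32, and in the ppsdes control at 2 h it was 1.12, 6.61 and 4.79. Results that rest on these libraries are also given without them. The sources used here do not say whether the replicates came from separate experiments, so p-values measure the spread between these libraries, which may be technical. The summed CPM of 5 mesophyll marker genes was 16835 to 25950 in WT MLACC at 4 h, against 42279 to 45137 in WT mYFP, and 5880 to 17079 at 8 h, against 35366 to 40168. In ppsdes MLACC it was 41049 to 42708 at 4 h, against 41089 to 47651 in the ppsdes control, and 33724 to 42953 at 8 h, against 44142 to 48916. The 5 guard cell and epidermis markers summed to 66.5 to 158 CPM in WT MLACC at 4 h, against 201 to 284 in WT mYFP, and 62.6 to 152 at 8 h, against 285 to 319. In ppsdes MLACC they summed to 220 to 224 CPM at 4 h, against 285 to 420 in the ppsdes control, and 151.4 to 199 at 8 h, against 275 to 293. By the edgeR test given below, 3 of the 5 mesophyll markers were called lower in wild type at 4 h and 5 at 8 h. In ppsdes 0 of the 5 were called at 4 or 8 h. Of the guard cell and epidermis markers 2 were called lower in wild type at 4 h, and at 8 h 4 lower and 1 higher. In ppsdes 0 of these were called at 4 h by edgeR and 0 by DESeq2, with 4 at an unadjusted p under 0.05 by edgeR. At 8 h 2 of these were called lower in ppsdes. The vasculature marker was not called at these times. The part of these lower sums in the values of the 150 genes was not tested, and in leaf RNA fewer cells of a type and less RNA per cell cannot be told apart. The markers went with the leaf label, and the 3 root markers summed to at most 2.515 CPM in any library.

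At 2 h in wild type the ranked value ran between 2.48 and 5.23 on the log2 (CPM + 1) scale. The highest was CML37, a calmodulin-like calcium sensor, with 82.4, 77.0 and 58.5 CPM in the WT MLACC libraries, against 1.23, 1.64 and 0 CPM in WT mYFP. MYB15, a transcription factor known for activating lignin genes in defence, was next at 4.99 and had 177, 135 and 72.6 CPM in WT MLACC, against 4.89, 4.30 and 0 CPM in WT mYFP. In both genes each WT MLACC library was above each WT mYFP library, as the choice of genes would favour. The last gene taken, AT5G08240, averaged 25.1 CPM in WT MLACC and 3.69 CPM in WT mYFP and had a value of 2.48. The first gene left out, AR781, averaged 387 CPM in WT MLACC and 69.2 CPM in WT mYFP and had a value of 2.47.

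Among the 20 transcription factors and partners, ERF13, an ethylene response factor, had 49.3, 116 and 43.7 CPM in WT MLACC at 2 h, against 3.42, 2.48 and 0.433 CPM in WT mYFP. WRKY46, the sole WRKY factor among the 150 genes, had 238, 218 and 159 CPM, against 10.6, 21.4 and 1.35 CPM. Of jasmonate synthesis, AOC3, an allene oxide cyclase, had 367, 423 and 249 CPM in WT MLACC, against 19.7, 18.5 and 6.12 CPM in WT mYFP. GAD4, a glutamate decarboxylase that makes GABA, reached 1611, 845 and 586 CPM, against 119, 142 and 38.2 CPM. XTH19, a xyloglucan-modifying enzyme of the cell wall, had 102, 132 and 150 CPM, against 5.13, 8.63 and 3.37 CPM. ABCG40 was carried by a single library, with 104, 7.47 and 7.97 CPM in WT MLACC, against 1.79, 1.47 and 0.241 CPM in WT mYFP; it encodes a plasma membrane transporter known for moving abscisic acid. The plot of median levels by library shows the 150 genes together in all lines.

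**Figure D1:**
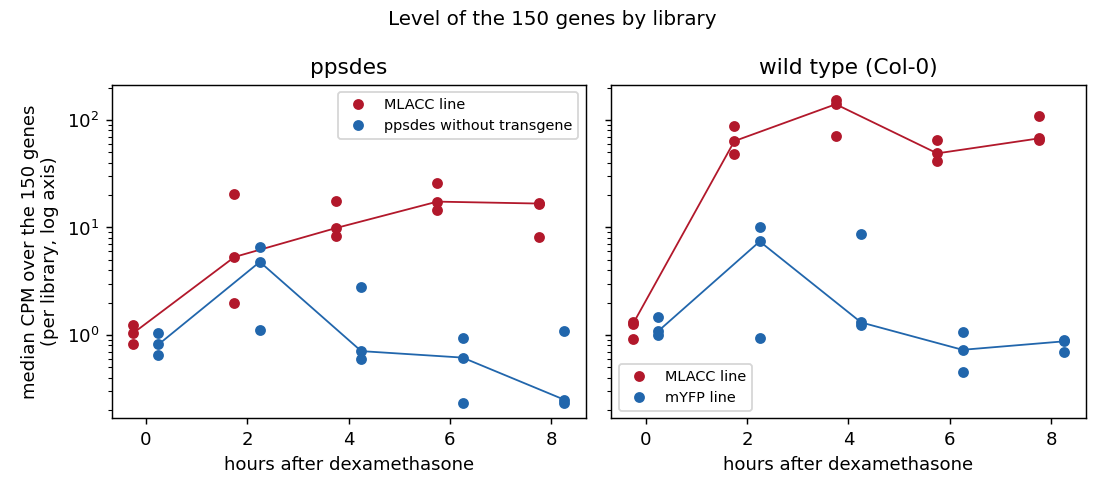
Median CPM over the 150 genes (log axis) against hours after dexamethasone, with 1 point per library and a line through the middle library of each group, for ppsdes on the left and wild type on the right. In wild type the MLACC libraries at 2 h, which chose the genes, sit between 48.6 and 88.6 CPM and those at 4 h between 70.3 and 153 CPM, while in ppsdes the MLACC libraries sit between 8.38 and 17.6 CPM at 4 h.

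The first question was whether these early genes stayed raised in wild type. The genes were tested with edgeR's quasi-likelihood test over all genes, with Benjamini-Hochberg adjustment, and a gene was called when its adjusted p was below 0.01 and its log2 fold change was beyond 1. Before induction, at 0 h, none of the 150 genes was called between WT MLACC and WT mYFP, where 0% of all 19654 tested genes was called up. None of the 150 reached an unadjusted p under 0.05 there either, and DESeq2 called 0. At 4 h 142 of the 150 were raised in WT MLACC, against 21.4% of tested genes. At 6 h 142 were raised, against 18.8%, and at 8 h 145 were raised, against 23.1%. All of 4, 6 and 8 h were reached by 135 genes, a count that was not taken over all tested genes. The median log2 fold change over the 150 genes was 3.39 at 2 h, 4.87 at 4 h, 5.63 at 6 h and 6.22 at 8 h, where the median over all tested genes stood near 0 at each time.

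The growing fold change and the level itself did not follow the same course. The median CPM in WT MLACC was 88.6, 63.6 and 48.6 over the libraries at 2 h, 70.3, 153 and 140 at 4 h, 48.9, 64.9 and 41.1 at 6 h and 64.6, 109 and 67.3 at 8 h. In WT mYFP it was 1.31, 1.24 and 8.79 at 4 h and 0.904, 0.695 and 0.874 at 8 h. The highest mean CPM in WT MLACC fell at 2 h for 50 genes, at 4 h for 82, at 6 h for 0 and at 8 h for 18, whereas the highest log2 fold change fell at 2 h for 8, at 4 h for 24, at 6 h for 24 and at 8 h for 94. Without WT mYFP 4 h replicate 3, all 150 genes were called at 4 h, and the count there was 90 in a fit of the 6 libraries of that time alone and 92 with the 0 h difference subtracted. That subtraction gave 98 at 6 h and 109 at 8 h.

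CML37 had 97.1, 250 and 226 CPM in WT MLACC at 4 h, against 0.335, 0.0516 and 3.32 CPM in WT mYFP. The 3 WT MLACC libraries were each far above each WT mYFP library, and the log2 fold change was 7.41 ± 0.93 (SE, n = 3 each, edgeR adjusted p = 7.02e-07). At 8 h it had 70.1, 123 and 75.4 CPM, against 0.0452, 0.232 and 0.0514 CPM, with a log2 fold change of 9.59 (edgeR adjusted p = 2.14e-07). WRKY46 had 477, 911 and 725 CPM in WT MLACC at 4 h, against 1.15, 0.981 and 9.73 CPM in WT mYFP, a log2 fold change of 7.62 ± 0.90 (SE, n = 3 each, edgeR adjusted p = 3.5e-07). The groups did not overlap, although WT mYFP replicate 3 was the highest of its group.

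Some genes climbed much further after 2 h. TAT3, a tyrosine aminotransferase known to respond to jasmonate, had 86.5, 44.2 and 24.4 CPM in WT MLACC at 2 h, and 924, 3139 and 3942 CPM at 4 h, against 8.98, 24.1 and 5.0 CPM in WT mYFP at 4 h. At 8 h TAT3 had 4249, 8238 and 6587 CPM, against 4.25, 1.44 and 1.54 CPM, a log2 fold change of 11.34 ± 1.22 (SE, n = 3 each, edgeR adjusted p = 5.79e-08). ABCG40 took the same course, with 1220, 4111 and 4541 CPM in WT MLACC at 4 h, against 0.812, 5.11 and 4.45 CPM in WT mYFP. Its 8 h libraries held 3259, 8361 and 5537 CPM, against 0.226, 0.464 and 0.463 CPM, a log2 fold change of 13.85 ± 1.34 (SE, n = 3 each, edgeR adjusted p = 1.44e-08). NAC019, a transcription factor of the NAC family, had 50.1, 352 and 254 CPM in WT MLACC at 4 h, against 2.34, 1.70 and 0.636 CPM in WT mYFP, a log2 fold change of 7.36 ± 0.78 (SE, n = 3 each, edgeR adjusted p = 8.77e-08). Prx37, a class III peroxidase of the cell wall, had 101, 124 and 182 CPM at 4 h, against 3.20, 6.04 and 5.45 CPM, and 234, 492 and 305 CPM at 8 h, against 0.0905, 0.417 and 0.154 CPM. In each of these genes the WT MLACC libraries lay above all WT mYFP libraries from 4 h on.

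XTH19 was no longer called at 6 and 8 h. It had 24.3, 28.2 and 22.0 CPM in WT MLACC at 4 h, against 7.12, 4.18 and 2.82 CPM in WT mYFP, a log2 fold change of 2.58 ± 0.55 (SE, n = 3 each, edgeR adjusted p = 0.000306). By 8 h its libraries overlapped between the lines, with 0.621, 0.711 and 2.44 CPM in WT MLACC, against 0.769, 0.695 and 0.566 CPM in WT mYFP (edgeR adjusted p = 0.295). ACS8, an enzyme of ethylene synthesis, had 32.0, 25.3 and 19.8 CPM in WT MLACC at 2 h, 14.9, 11.8 and 19.1 CPM at 4 h and 0.892, 1.04 and 0.829 CPM at 6 h, where WT mYFP had 0.265, 0.0456 and 0.228 CPM and the difference was not called (edgeR adjusted p = 0.0291). At 8 h ACS8 was called again, with 2.02, 2.28 and 1.56 CPM in WT MLACC, against 0.0452, 0.0464 and 0.103 CPM in WT mYFP, a log2 fold change of 4.81 (edgeR adjusted p = 0.000159). At 4 h the 8 genes not called were DLAH, CML45, ZAT11, XTH18, AT2G32030, AT1G71520, DIC2 and IGMT3. At 8 h the 5 genes not called were XTH19, ERF98, AT1G30190, AT3G09870 and IGMT3. These names outside the fixed naming rule were listed because their counts are small, after their values were seen.

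The difference between the 8 h and the 4 h effect was tested directly. In wild type 1 of the 150 genes had a larger effect at 8 h than at 4 h, against 1.57% of tested genes, and 0 had a smaller one, against 1.60%, whereas 41 of the 150 reached an unadjusted p under 0.05 in either direction and DESeq2 called 6 larger and 1 smaller. The gene called was Prx37, with a log2 difference of 5.58 (edgeR adjusted p = 0.00389), a call that was lost in some of the fits that left out 1 library. The median of this difference over the 150 genes was 1.15. A single gene was called lower when WT MLACC 4 h replicate 1 or WT mYFP 4 h replicate 3 was left out.

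In ppsdes most of the genes were first called at 4 or 6 h. None of the 147 genes that passed the low-count filter in ppsdes was called at 0 h, against 0.00520% of tested genes, with 4 at an unadjusted p under 0.05 and 0 called by DESeq2. At 2 h 4 of the 147 were raised in ppsdes MLACC, against 0.380% of all 19216 tested genes. At 4 h 54 were raised, against 2.08%, at 6 h 115, against 10.5%, and at 8 h 107, against 9.00%. The median log2 fold change over these genes was 0.95 at 2 h, 2.70 at 4 h, 4.55 at 6 h and 4.21 at 8 h. The first call came at 2 h for 4 genes, at 4 h for 50, at 6 h for 62 and at 8 h for 3, and 28 were called at no time. The highest log2 fold change fell at 6 h for 94 and at 8 h for 49 of the 147. The count at 2 h was 1 without ppsdes control replicate 1, 2 without ppsdes control replicate 2 and 12 without ppsdes MLACC replicate 1. The count at 4 h was 31 without ppsdes MLACC replicate 3, 28 without ppsdes control replicate 1 and 26 without ppsdes control replicate 3. With the 0 h difference subtracted the counts were 0 at 2 h, 8 at 4 h, 49 at 6 h and 36 at 8 h, and with only the libraries of the time itself they were 0 at 2 h and 17 at 4 h. With both 2 h libraries numbered 1 left out, a setting chosen after seeing the data, 6 genes were called at 2 h.

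**Figure D2:**
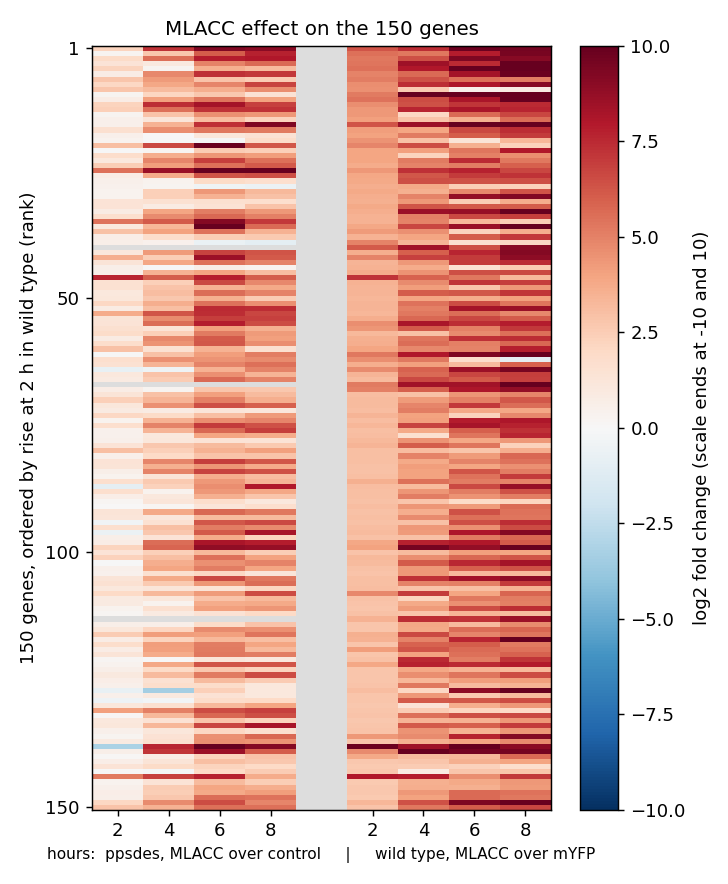
Log2 fold change of each of the 150 genes (rows, ordered by their rank at 2 h in wild type) at 2, 4, 6 and 8 h, for ppsdes MLACC over the ppsdes control in the left block and WT MLACC over WT mYFP in the right block, with colours ending at -10 and 10 and grey for genes not tested. The wild-type block is filled from 2 h, the column that chose the genes, while the ppsdes block has a median of 0.95 at 2 h and of 4.55 at 6 h.

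The 4 genes called in ppsdes at 2 h were PUB54, GAD4, JAZ10 and AT3G50800, and all 4 were called at each later time. JAZ10, a jasmonate-induced repressor of the JAZ family, had 8.44, 23.7 and 20.6 CPM in ppsdes MLACC, against 3.31, 3.70 and 3.49 CPM in the ppsdes control. The groups did not overlap, and the log2 fold change was 2.35 ± 0.36 (SE, n = 3 each, edgeR adjusted p = 0.000736). GAD4 had 74.4, 582 and 204 CPM, against 0.653, 4.74 and 14.5 CPM, a log2 fold change of 5.45 ± 0.94 (SE, n = 3 each, edgeR adjusted p = 0.00249). PUB54, a protein of the U-box ubiquitin ligase family, was low in absolute terms, with 0.874, 5.64 and 4.11 CPM, against 0, 0.0521 and 0.155 CPM (edgeR adjusted p = 0.000745). AT3G50800, of unknown function, had 8.61, 22.1 and 22.7 CPM, against 0.420, 1.30 and 1.44 CPM, a log2 fold change of 4.09 ± 0.53 (SE, n = 3 each, edgeR adjusted p = 8.03e-05). The GAD4 call was lost without ppsdes MLACC replicate 2, control replicate 1 or control replicate 2, the PUB54 call without control replicate 1 or 2, and the JAZ10 call without control replicate 1.

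All 11 calcium signalling genes among the 150 were called in ppsdes at 6 and 8 h. At 4 h 3 of the 11 were called in ppsdes. Over all 147 members tested in ppsdes the share called was 36.7% at 4 h, 78.2% at 6 h and 72.8% at 8 h, and over all tested genes it was 2.08%, 10.5% and 9.00%. Of the 11 genes, 10 were called in wild type at 4 h and 11 at 8 h, against 21.4% and 23.1% of tested genes. CML37 had 1.53, 19.5 and 1.93 CPM in ppsdes MLACC at 2 h, against 0.0466, 3.07 and 1.82 CPM in the ppsdes control, so the groups overlapped. At 4 h it had 16.2, 16.9 and 35.9 CPM, against 0.142, 0.257 and 0.0401 CPM, a log2 fold change of 7.25 ± 1.15 (SE, n = 3 each, edgeR adjusted p = 0.000345). CNGC19, a cyclic nucleotide-gated channel known to carry calcium, had 12.4, 19.5 and 24.3 CPM in ppsdes MLACC at 4 h, against 0.803, 0.821 and 0.441 CPM in the ppsdes control (edgeR adjusted p = 0.000301). ACA13, a calcium pump, had 20.8, 35.5 and 21.1 CPM, against 1.09, 0.564 and 0.762 CPM (edgeR adjusted p = 0.000141). CML45 and CML40, calmodulin-like proteins, were called in ppsdes at 6 h (edgeR adjusted p = 0.00398 and 0.00028). CNGC19 and ACA13 were picked for mention after their values were seen.

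The genes of the TIR-domain and TIR-NBS families, relatives of intracellular receptors, had 6 of 7 called in ppsdes at 4 h and 7 of 7 at 6 h and at 8 h, and 7 of 7 in wild type at 4 h and 8 h, beside the shares of all members and of all tested genes given above, and no difference from the other members was tested. AT2G20142 had 49.5, 62.8 and 91.8 CPM in ppsdes MLACC at 4 h, against 1.42, 4.36 and 0.882 CPM in the ppsdes control, a log2 fold change of 4.89 ± 0.88 (SE, n = 3 each, edgeR adjusted p = 0.00131). In WT MLACC at 4 h it had 130, 150 and 124 CPM, against 2.53, 1.86 and 27.6 CPM in WT mYFP. Of the 5 cell death regulators and stress hydrolases 4 were called in ppsdes at 4, 6 and 8 h. BAP1, a membrane-associated suppressor of cell death, had 7.15, 5.43 and 14.1 CPM in ppsdes MLACC at 4 h, against 0.236, 0.821 and 0.0802 CPM in the ppsdes control (edgeR adjusted p = 0.00199).

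SARD1 and CBP60G encode related transcription factors known to activate salicylic acid synthesis, and both were called in ppsdes from 4 h. SARD1 had 63.3, 65.0 and 137 CPM in ppsdes MLACC at 4 h, against 0.472, 2.41 and 0.481 CPM in the ppsdes control, a log2 fold change of 6.27 ± 0.87 (SE, n = 3 each, edgeR adjusted p = 6.89e-05). In WT MLACC it had 391, 538 and 487 CPM, against 9.65, 9.5 and 21.8 CPM in WT mYFP. CBP60G had 81.9, 120 and 166 CPM in ppsdes MLACC at 4 h, against 3.78, 20.7 and 2.04 CPM in the ppsdes control (edgeR adjusted p = 0.00972). MPK11, a MAP kinase, had 14.7, 25.2 and 44.6 CPM, against 0.614, 1.95 and 0.241 CPM (edgeR adjusted p = 0.000167). For SARD1 the overlap with GIP2 limits the count, and for each of the 3 genes the ppsdes MLACC libraries lay above the ppsdes control libraries.

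Of 7 genes of specialised metabolism 1 was called in ppsdes at 4 h, 1 at 6 h and 2 at 8 h, and 6 were called in wild type at 4 h and 6 at 8 h. Over all tested genes the share called up was 2.08%, 10.5% and 9.00% in ppsdes at 4, 6 and 8 h. In wild type it was 21.4% at 4 h and 23.1% at 8 h, and these shares stand beside the next counts too. CYP79B2, which turns tryptophan into the precursor of indole glucosinolates and camalexin, had 4.76, 8.98 and 4.01 CPM in ppsdes MLACC at 4 h, against 1.37, 5.54 and 3.05 CPM in the ppsdes control, so the groups overlapped. In WT MLACC it had 473, 1164 and 839 CPM, against 20.1, 8.88 and 7.41 CPM in WT mYFP (edgeR adjusted p = 1.74e-07). Of the 15 genes of cell wall and phenylpropanoids 2 were called in ppsdes at 4 h, 11 at 6 h and 9 at 8 h, and 14 in wild type at 4 h. CCR2, a cinnamoyl-CoA reductase of lignin synthesis, had 1.19, 2.81 and 2.30 CPM in ppsdes MLACC at 4 h, against 0.378, 2.26 and 0.521 CPM in the ppsdes control (edgeR adjusted p = 0.508). Of the 20 transcription factors and partners 19 were tested in ppsdes, and 7 were called at 4 h, 12 at 6 h and 10 at 8 h. MYB15 was not called at 4 h (edgeR adjusted p = 0.12) and was called at 6 h, with 9.41, 24.4 and 16.1 CPM in ppsdes MLACC, against 0.0469, 0.522 and 0.0514 CPM in the ppsdes control (edgeR adjusted p = 0.000748).

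NAC019, AT2G14290 and AT3G43250 did not pass the low-count filter in ppsdes. NAC019 had 0.170, 0.154 and 0.334 CPM in ppsdes MLACC at 4 h, against 0.283, 0.410 and 0.241 CPM in the ppsdes control, values at about the level of a few reads. AT3G43250 had no read in any ppsdes library at 4 or 8 h, where WT MLACC had 11.9, 33.6 and 29.1 CPM at 4 h, against 0.143, 0.0516 and 0.0454 CPM in WT mYFP. With 3 counts as the floor, ppsdes levels of up to 0.116 to 0.213 CPM in single libraries would have gone undetected.

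**Figure D3:**
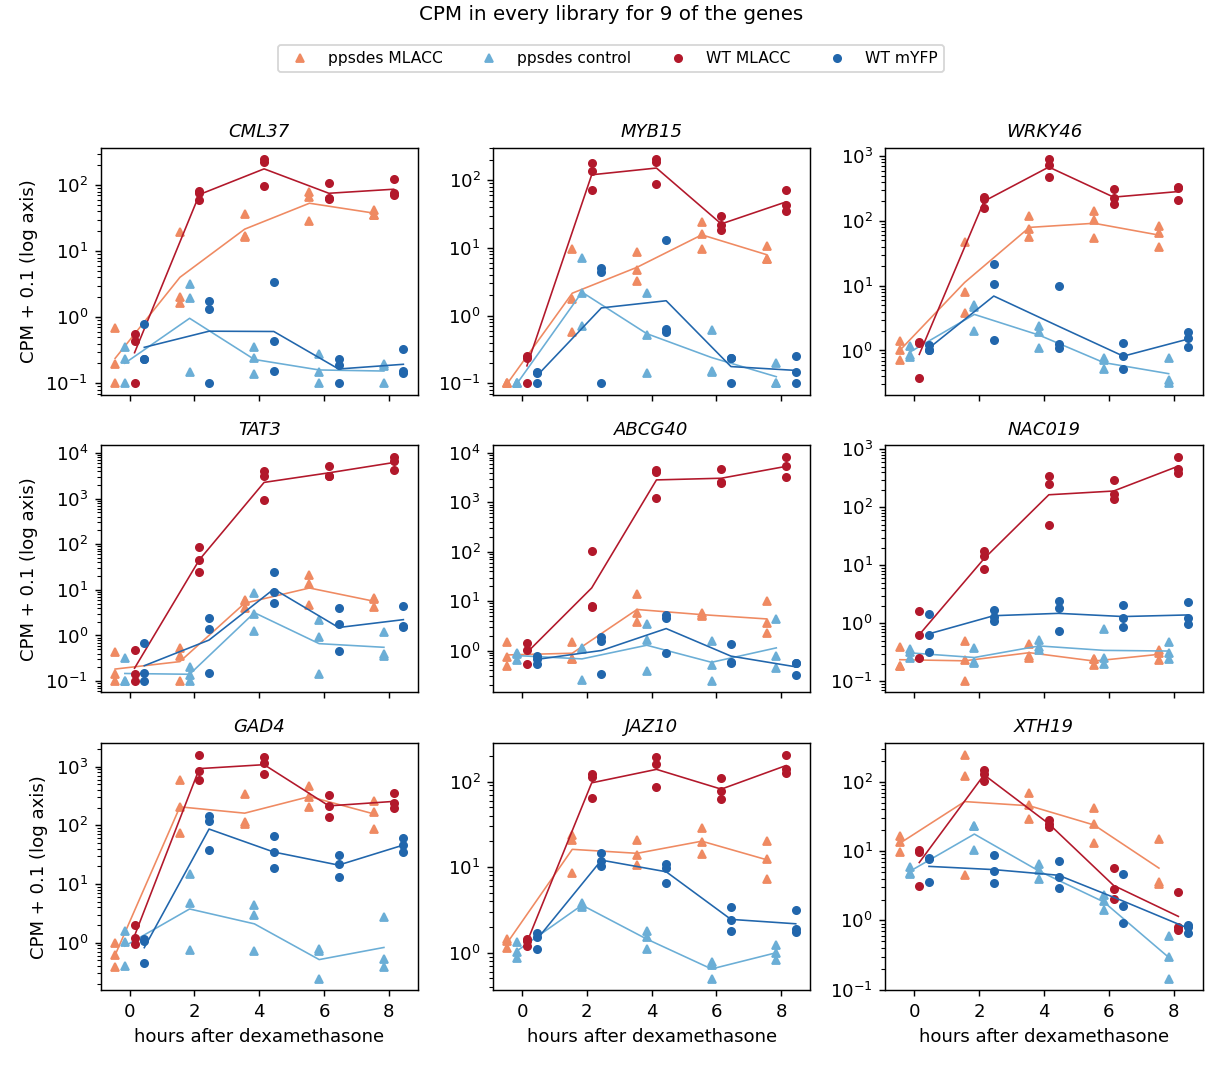
CPM plus 0.1 in every library (log axis) against hours after dexamethasone for 9 of the 150 genes, with triangles for ppsdes and circles for wild type, red shades for MLACC lines and blue shades for their controls, and lines through the group means of the log values. CML37, MYB15 and WRKY46 rise in both MLACC lines, and in WT MLACC their mean is highest at 4 h (191, 161 and 704 CPM) and lower at 6 and 8 h. TAT3, ABCG40 and NAC019 rise in WT MLACC (4249, 8238 and 6587 CPM for TAT3 at 8 h) and stay at or below 21.0 CPM in ppsdes MLACC. XTH19 returns to the control level in wild type by 8 h (0.621, 0.711 and 2.44 CPM in WT MLACC).

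Whether the response differed between the backgrounds was tested as the MLACC effect in ppsdes minus that in wild type over all 60 libraries. Genes were chosen for a large effect in wild type, which favours lower values in ppsdes, so the direction of this difference is in part set by the choice. At 4 h 38 of the 150 genes had a smaller effect in ppsdes, against 10.6% of all 19929 tested genes, and 1 had a larger effect, against 10.1%. At 6 h 11 were lower, against 2.61%, and 2 higher, against 1.52%. At 8 h 27 were lower, against 8.61%, and 2 higher, against 11.3%. Lower at all of 4, 6 and 8 h were 11 genes, and 45 were lower at any of these times. Neither count was taken over all tested genes. The median difference was -1.96 at 4 h, -0.89 at 6 h and -1.83 at 8 h. Of the 38 genes lower at 4 h, 25 were called up in ppsdes itself at 6 h, which was not counted over all tested genes either. The count at 4 h was 68 without WT mYFP 4 h replicate 3 and 24 without ppsdes control 4 h replicate 2, and at 6 h it was 6 without ppsdes control 6 h replicate 2. With only the 4 h libraries it was 20 at 4 h, and DESeq2 gave 41 at 8 h.

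Among the 38 genes called lower at 4 h the largest differences were in ABCG40, NAC019, TAT3 and CCR2. AT3G43250, without a read in ppsdes at 4 h, had a fitted difference of -8.32 that was not called (edgeR adjusted p = 1) and is no bound. In the same contrast the mesophyll markers that fell in WT MLACC fell less in ppsdes, with 3 of the 5 called. ABCG40 had 3.74, 5.78 and 13.7 CPM in ppsdes MLACC at 4 h, against 1.51, 3.33 and 0.281 CPM in the ppsdes control. Its difference in log2 effect, ppsdes minus wild type, was -7.96 ± 1.27 (SE, edgeR adjusted p = 9.22e-06) at 4 h and -12.40 ± 1.46 at 8 h (edgeR adjusted p = 2.46e-08). TAT3 had 3.83, 5.93 and 5.47 CPM in ppsdes MLACC at 4 h, against 2.79, 8.52 and 1.16 CPM in the ppsdes control, and its difference was -7.69 ± 1.19 (SE, edgeR adjusted p = 5.95e-06). TAT3 was called in ppsdes at 6 h, where ppsdes MLACC had 4.49, 21.0 and 13.5 CPM, against 0.0469, 2.05 and 0.822 CPM (edgeR adjusted p = 0.00207). NAC019 differed by -7.86 at 4 h (edgeR adjusted p = 5.92e-06) and -9.07 at 8 h (edgeR adjusted p = 1.98e-06), and CCR2 by -7.47 at 4 h (edgeR adjusted p = 2.78e-06) but not by a called amount at 6 or 8 h (edgeR adjusted p = 0.359 and 0.357). The 6 h calls of TAT3, ABCG40 and NAC019 were lost without ppsdes control 6 h replicate 2.

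Of the 8 jasmonate genes, 5 had a smaller effect in ppsdes at 4 h, 3 at 6 h and 5 at 8 h, where the share of all tested genes was 10.6%, 2.61% and 8.61%. OPR3, the reductase of jasmonate synthesis, had 25.5, 20.3 and 24.7 CPM in ppsdes MLACC at 4 h, against 11.2, 13.1 and 13.8 CPM in the ppsdes control. In WT MLACC it had 467, 1481 and 1182 CPM, against 46.1, 35.9 and 23.3 CPM in WT mYFP. The difference in log2 effect was -4.24 ± 0.49 (SE, edgeR adjusted p = 2.67e-08), and it was called at 6 h and 8 h too (edgeR adjusted p = 0.00022 and 3.25e-05). AOC3 differed by -3.46 at 4 h (edgeR adjusted p = 0.00537), and LOX4 by -4.43 at 8 h (edgeR adjusted p = 0.00119). JAZ1, which encodes a repressor of jasmonate signalling, was not called lower at any time, with 18.4, 29.9 and 35.6 CPM in ppsdes MLACC at 4 h, against 0.661, 2.98 and 0.962 CPM in the ppsdes control, and a difference of -0.82 (edgeR adjusted p = 0.46). OPR3, LOX4 and JAZ1 were picked for mention after their values were seen.

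4CL5, a 4-coumarate-CoA ligase of phenylpropanoid synthesis, had 6.30, 6.17 and 12.0 CPM in ppsdes MLACC at 4 h, against 5.01, 9.65 and 7.86 CPM in the ppsdes control, and 403, 842 and 833 CPM in WT MLACC, against 4.54, 3.56 and 5.50 CPM in WT mYFP. The ppsdes groups overlapped and the wild-type groups did not, and the difference was -7.36 ± 0.60 (SE, edgeR adjusted p = 5.56e-12). Its overlap with MKK5 limits the count, and the gene was picked after its values were seen. ERF1A, an ethylene response factor, had 1.91, 1.19 and 2.76 CPM in ppsdes MLACC at 4 h, against 0.661, 4.16 and 0.601 CPM in the ppsdes control, and differed by -5.13 (edgeR adjusted p = 0.000112), a call lost without ppsdes control 4 h replicate 2. NHL10, a membrane protein induced in the hypersensitive response, differed by -5.01 at 4 h (edgeR adjusted p = 0.00517) and PROPEP3, the precursor of a defence peptide, by -5.66 (edgeR adjusted p = 0.00564). WRKY46, with 56.2, 74.3 and 120 CPM in ppsdes MLACC, against 1.84, 2.31 and 1.00 CPM in the ppsdes control, was not called different (difference -2.06, edgeR adjusted p = 0.0809).

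The genes called higher in ppsdes were GAD4 and AT3G50800. GAD4 had 169, 259 and 87.0 CPM in ppsdes MLACC at 8 h, against 0.293, 2.69 and 0.423 CPM in the ppsdes control, and 196, 353 and 243 CPM in WT MLACC, against 34.7, 61.8 and 45.6 CPM in WT mYFP. The MLACC libraries of both backgrounds overlapped while the control libraries did not, and the difference in log2 effect was 4.64 ± 1.08 (SE, edgeR adjusted p = 0.000777). AT3G50800 had 15.4, 12.4 and 20.4 CPM in ppsdes MLACC at 4 h, against 0.378, 0.924 and 0.120 CPM in the ppsdes control, and 28.8, 43.2 and 36.2 CPM in WT MLACC, against 5.78, 7.33 and 7.95 CPM in WT mYFP. The difference was 2.55 at 4 h (edgeR adjusted p = 0.00706), a call lost in 7 of the fits that left out a single library, and 4.87 at 8 h (edgeR adjusted p = 7.84e-05). In both genes the lower control level in ppsdes moved with the larger effect, and the absent transgene in that control cannot be told apart from the mutations.

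**Figure D4:**
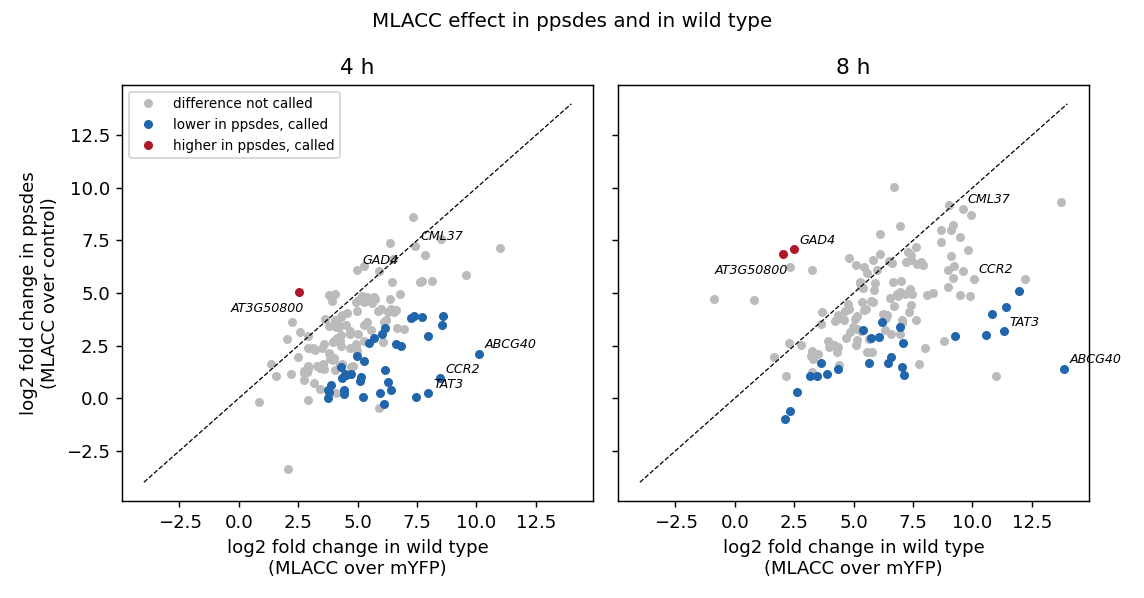
Log2 fold change in ppsdes (MLACC over control, vertical axis) against that in wild type (MLACC over mYFP, horizontal axis) for the 150 genes less those not tested in ppsdes, at 4 h on the left and 8 h on the right, with the dashed line at equal values. Blue points are lower in ppsdes by the test of the difference and red points higher, and ABCG40 lies farthest below the line at 8 h, with a difference of -12.40.

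In ppsdes the effect at 8 h minus that at 4 h was called larger for 1 of the 147 genes, against 0.734% of tested genes, and smaller for 0, against 0.0729%, with 29 of the 147 at an unadjusted p under 0.05 in either direction and 0 called smaller by DESeq2. The gene was CRK13, a cysteine-rich receptor-like kinase, with a log2 difference of 4.90 (edgeR adjusted p = 0.0039). It was named because it was the single call. This count ran between 0 and 2 when a single library was left out, being 0 without ppsdes MLACC 4 h replicate 1 or 2, ppsdes MLACC 8 h replicate 1 or 2, ppsdes control 4 h replicate 2, or ppsdes control 8 h replicate 1 or 3, and 2 without ppsdes MLACC 4 h replicate 3, and DESeq2 called 4. The median difference over the genes was 1.42.

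The control lines were infiltrated with dexamethasone as well, and some of the 150 genes moved in them. In WT mYFP 33 genes, or 22%, were higher at 4 h than at 0 h, against 7.67% of tested genes. Lower were 7, or 4.67%, against 5.45%. In the ppsdes control 41 of 147, or 27.9%, were higher at 2 h than at 0 h, against 7.59%, and 5, or 3.4%, lower, against 4.45%. At 4 h 15, or 10.2%, were higher, against 8.21%, and 14, or 9.52%, lower, against 5.69%. The lower counts in WT mYFP and in the ppsdes control at 2 h, and the higher count in the ppsdes control at 4 h, were thus near the share of all tested genes. The highest mean CPM of the ppsdes control fell at 2 h for 97 of the 150 genes. MYB15 had 0.606, 7.08 and 2.06 CPM in the ppsdes control at 2 h, against 0 CPM in all 3 libraries at 0 h, which puts it at least 66.2-fold higher when 3 counts over the 0 h group are taken as the floor. DLAH, an acylhydrolase of lipid breakdown, had 0.0466, 28.7 and 1.86 CPM at 2 h and was at least 197-fold higher, and AT1G71520, a DREB-type transcription factor, had 0.373, 15.1 and 6.05 CPM and was at least 148-fold higher. CYP82C3, a cytochrome P450, was at least 77.3-fold higher. In all 4 genes replicate 2 was the highest and replicate 1 the lowest, and without replicate 2 the bound was 30.4-fold for MYB15, 22.6-fold for DLAH, 75.6-fold for AT1G71520 and 36.4-fold for CYP82C3. In WT mYFP at 4 h TAT3 was higher than at 0 h, with a log2 fold change of 5.57 (edgeR adjusted p = 0.000481).

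The count of 33 in WT mYFP was 21 without its 4 h replicate 3, 19 without its 0 h replicate 2 and 21 without its 0 h replicate 3. The count of 41 in the ppsdes control was 20, 18 and 18 without its 0 h replicate 1, 2 or 3, and 21 and 26 without its 2 h replicate 2 or 3. The count of 41 was 19 with only the libraries of the contrast. The count of 15 at 4 h was 26 by DESeq2 and 9 and 8 without its 0 h replicate 1 or 3 and 8 without its 4 h replicate 2. In all, 11 of the 150 genes were raised at 4 h in both control lines. Taken singly, 7.67% of tested genes were raised in WT mYFP and 8.21% in the ppsdes control. The share raised in both lines was not taken over all tested genes, so the joint count has no matching share.

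Over all tested genes the share called up was 21.4% in wild type at 4 h. In ppsdes this share was 2.08%, 10.5% and 9.00% at 4, 6 and 8 h. Of 28 genes listed as calcium sensors, pumps and calmodulin-linked genes, 8 were among the 150. The 20 others were called up in wild type at 4 h in 20 cases, and in ppsdes 7 of 18 tested were called at 4 h and 13 at 6 h. Of 43 listed jasmonate genes 9 were among the 150, and of the others 1 of 24 tested was called up in ppsdes at 4 h and 1 at 6 h, and 25 of 32 were called in wild type at 4 h. The 24 include AOS, the DDE2 gene, which is mutated in ppsdes. The 9 include CYP82G1, which was counted above with specialised metabolism and not with the jasmonate genes. The effect was smaller in ppsdes at 4 h for 6 of the 9 and for 19 of the 32 others tested, against 10.6% of tested genes. Of 28 listed WRKY factors only WRKY46 was among the 150. The 1 CPM added in the ranking holds back genes with few counts. WRKY75, WRKY62 and WRKY51 had fitted log2 fold changes of 5.06, 4.52 and 4.08 at 2 h in wild type, beside 4.31 for WRKY46. Other WRKY factors were lower, down to -0.44 for WRKY22. Of the 27 others 21 were called in wild type at 4 h, and 1 of 24 tested in ppsdes at 4 h and 14 at 6 h. Of 13 listed genes of tryptophan, camalexin and indole glucosinolate metabolism only CYP79B2 was among the 150, and of the 12 others 11 were called in wild type at 4 h. In ppsdes edgeR called 0 of the 12 at 4 h, with 0 at an unadjusted p under 0.05 and 0 called by DESeq2, and called 3 at 6 h and 7 at 8 h.

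For the next lists too, 21.4% of all tested genes were called up in wild type at 4 h. In ppsdes this share was 2.08%, 10.5% and 9.00% at 4, 6 and 8 h. Of 26 listed ERF and DREB factors 6 were among the 150, and 2 of these 6 were called in ppsdes at each of 4, 6 and 8 h. Of the 20 others 11 were called in wild type at 4 h and in ppsdes 3 of 15 tested were called at 6 h. At 4 h edgeR called 0 of the 15 in ppsdes, with 3 at an unadjusted p under 0.05 and 0 called by DESeq2. Of 31 listed zinc finger, NAC, MYB and heat shock factors 5 were among the 150, and of the others 22 of 24 tested were called in wild type at 4 h and 3 of 22 in ppsdes at the same time. ZAT12, a zinc finger factor of the stress response, was a member called in both, with 15, 15.4 and 31.0 CPM in ppsdes MLACC at 4 h, against 0.614, 2.21 and 0.321 CPM in the ppsdes control, and 100, 234 and 225 CPM in WT MLACC, against 0.908, 0.775 and 8.00 CPM in WT mYFP. Of 21 listed salicylic acid and pipecolate genes SARD1 and CBP60G were among the 150, and of the 19 others 19 were called in wild type at 4 h and 5 of 16 tested in ppsdes. The 16 include SID2, PAD4 and SAG101, which are mutated in ppsdes, so their counts there come from mutant alleles. Of 31 pattern receptors, MAP kinases and oxidases 4 were among the 150, and of the 27 others 23 were called in wild type at 4 h and 2 of 26 tested in ppsdes, where 16 were called at 6 h. Of 13 listed cell death regulators 3 were among the 150 and were called in ppsdes at 4, 6 and 8 h. Of the 9 others tested in ppsdes 1 was called at 4 h, 5 at 6 h and 5 at 8 h. Of 7 listed ethylene synthesis genes ACS8 was the one among the 150. Of the 6 others 3 were called in wild type at 4 h, and in ppsdes 3 at 6 h and 3 at 8 h. At 4 h edgeR called 0 of these 6 in ppsdes, with 3 at an unadjusted p under 0.05 and 1 called by DESeq2. Of the 14 listed PUB and ATL ubiquitin ligases, a list that does not hold the member PUB54, 10 were called in wild type at 4 h. In ppsdes 5 of the 14 were called at 6 h and 2 at 8 h. At 4 h edgeR called 0 in ppsdes, with 3 at an unadjusted p under 0.05 and 0 called by DESeq2.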

How the data were processed

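Leaf poly(A) RNA was made into unstranded TruSeq libraries, and the deposited values are counts of reads per gene that the authors obtained with TopHat2 (2.0.10), FastQC (0.11.2) and HTSeq on TAIR10. The 2 count tables, with 30 libraries each for wild type and ppsdes, also held rows of unassigned reads, 8.40 to 16.8% of a library, which were left out. The members, gene lists, naming rule and tests were chosen with earlier results of these data known, and several lists were drawn up by an earlier analysis of the same libraries, so their counts are not independent evidence.

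CPM was the count over the library's sum of gene rows. Tests used edgeR (4.0.16) in R (4.3.3) with limma (3.58.1): TMM factors, filterByExpr, 1 mean per group, quasi-likelihood F tests and Benjamini-Hochberg adjustment over all tested genes, each table by itself and all 60 libraries together for the difference between backgrounds. A call needed an adjusted p below 0.01 and an absolute log2 fold change over 1. The SE given with a log2 fold change is its size over the square root of F. The fit was tested on simulated data. Genes named were the 10 highest-ranked, the 3 highest of each list, the extremes of the 8 h minus 4 h effect and of the ppsdes minus wild-type effect at 4 h, those called in ppsdes at 2 h, the 3 steepest in the ppsdes control, and ranks 150 and 151. Others are marked in the text as picked after their values were seen. Alternatives were DESeq2 (1.42.0), RLE factors, no filter or at least 1 CPM in 3 libraries, only the libraries of a contrast, subtraction of the 0 h difference, a replicate block, a pseudocount of 5 in the ranking, and leaving out each library. No 2 replicates were near copies by a chi-square comparison of their counts. Promoters, exons and positions came from RefSeq on TAIR10.1, whose nuclear chromosomes match TAIR10, and all 150 genes were matched by locus. Counting error alone is covered by the floor of 3 counts. Protein sequences and the MLACC transcript were not analysed here. The sequence of 1 promoter is not reported here.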

Additional observations from a re-analysis of the deposited data

Results flagged for a closer look

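Some of the 150 genes differed in their MLACC effect between ppsdes and wild type in the test of the difference itself. By edgeR's quasi-likelihood test at an adjusted p below 0.01 and a log2 difference beyond 1, the effect was smaller in ppsdes for 38 genes at 4 h, 11 at 6 h and 27 at 8 h, and larger for 1 gene at 4 h, 2 at 6 h and 2 at 8 h. Of all tested genes 10.6%, 2.61% and 8.61% had a smaller effect at these times and 10.1%, 1.52% and 11.3% a larger one. The genes were ranked on a wild-type effect, which favours the first direction, so its excess over the second is not a separate observation. The larger effects belonged to AT3G50800 at all 3 times and GAD4 at 6 and 8 h.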

How the results depend on the processing

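For the named genes, only comparisons already called in the main fit were followed through the other settings, where an adjusted p was given. Of 3552 such values 3172 kept their side of the threshold and 380 fell short of it. None reversed direction, but starting from called genes leaves little room for a reversal. Genes newly called under a setting were not counted here. In wild type the count raised at 4 h was 142, with 133 to 150 when a library was left out, 90 with only the libraries of the contrast, which has fewer samples, and 92 with the 0 h difference subtracted. In ppsdes the count at 2 h was 4, with 1 to 12 when a library was left out, 8 by DESeq2, and 0 with only the libraries of the contrast or with the 0 h difference subtracted. At 4 h it was 54, with 26 to 54 when a library was left out, 17 with only the libraries of the contrast and 8 with the 0 h difference subtracted. At 6 and 8 h that subtraction gave 49, against 115, and 36, against 107. In wild type it gave 98, against 142, at 6 h and 109, against 145, at 8 h. For the smaller effect in ppsdes, leaving out a library gave 24 to 68 at 4 h and 6 to 11 at 6 h, only the libraries of the contrast gave 20 at 4 h, and DESeq2 gave 41 at 8 h. For the 8 h minus 4 h effect, leaving out a library gave 0 to 1 lower in wild type and 0 to 2 higher in ppsdes. The wild-type count was 1 with a pseudocount of 5 in the ranking and 1 by DESeq2, and the ppsdes count was 4 by DESeq2, 2 with the replicate block and 0 with only the libraries of the contrast. In the control lines, leaving out a library gave 19 to 40 in WT mYFP at 4 h, 18 to 51 in the ppsdes control at 2 h and 8 to 16 at 4 h, and the ppsdes control gave 19 at 2 h with only the libraries of the contrast and 26 at 4 h by DESeq2. Beyond the difference in sample number, the cause was not tested.

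Replicate numbers are shared between lines with no stated pairing. Same-numbered libraries correlated at -0.182 to 0.554 in their deviations, with all 3 pairs over 0.1 in ppsdes at 6 and 8 h and wild type at 0 h. With a replicate block the counts were 139 in wild type and 71 in ppsdes at 4 h, 124 and 120 in ppsdes at 6 and 8 h, and 36, 11 and 28 for the smaller effect in ppsdes at 4, 6 and 8 h. Of the 150 genes 112 were also chosen with a pseudocount of 5, and 129 to 141 when a 2 h library was left out. Genes near the floor of 3 counts in a control have fold changes that depend on the prior count.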
